A study of Mus musculus with 6 samples.

Results

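The genes described here encode the subunits of the mouse proteasome, its activators and its assembly factors. They were chosen by name, as the protein-coding genes of the deposited table whose symbols start with Psma to Psmg and a digit, with the immunoproteasome genes Psmb8 and Psmb9 left out. The rule found 48 genes of 54532, and 46 of them had a mean of at least 1 FPKM and entered the test. FPKM is fragments per kilobase of gene length, scaled to a depth for each library. The depth implied by the deposited values was 0.89 to 1.11 times the reads on genes, so it was not the plain read total. Islet RNA, which the labels assign to beta cells, the source of insulin, was sequenced in 3 control libraries, labelled wild type, and 3 libraries of a Bcas2 conditional knockout (cKO). The BCAS2 protein belongs to the Prp19 complex, a spliceosome component, and the series title links it to alternative splicing and to how insulin is made and secreted. The series design text calls the change a knockdown. No source used here gives the Cre driver, the deleted part of the gene or the age of the mice. Whether each library is a separate animal is not stated in the labels. The p-values therefore measure only the spread between these libraries, and this spread may be technical.

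The proteasome degrades proteins that carry chains of ubiquitin. Its 20S core is a barrel of alpha rings, which gate the entrance, around beta rings, which hold the proteolytic sites. A 19S cap recognises the ubiquitin chain, removes it, unfolds the substrate with a ring of ATPases and feeds it into the core. In beta cells, as in other secretory cells, the proteasome also clears misfolded proinsulin and other proteins exported from the endoplasmic reticulum. Under interferon signalling the catalytic beta subunits are exchanged for the immunoproteasome forms, which favour peptides for antigen presentation.

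Reads on genes, recovered from the FPKM, numbered between 15170439 and 15594871 in each control library and between 16351800 and 16904326 in each Bcas2 cKO library. Bcas2 was 10.3, 15.04 and 11.2 FPKM in control libraries 1, 3 and 4 and 8.76, 8.40 and 9.14 FPKM in Bcas2 cKO libraries 3, 4 and 5 (log2 fold change -0.42, limma adjusted p 0.083). The targeted gene was thus lower in all 3 Bcas2 cKO libraries but did not pass the test. Beta cell markers were present in all 6 libraries, and the 9 listed ones took 20.5 to 28.7% of reads in control against 14.6 to 16.0% in Bcas2 cKO. Of these, 2 fell and none rose. The 12 acinar cell markers took 0.451 to 1.14% of reads in control against 1.51 to 4.36% in Bcas2 cKO, and 4 of them rose. The 6 alpha, delta and PP cell markers took 3.36 to 3.47% in control against 4.23 to 4.64% in Bcas2 cKO, and 1 rose. Over all genes tested, 6.97% rose and 7.55% fell. The part of these shifts in the differences below was not tested. In bulk samples, fewer cells of a type and less RNA per cell cannot be told apart.

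Most proteasome genes differed little between the groups. Of the 46 genes tested, Psma3, Psmc6 and Psmb10 rose in Bcas2 cKO and none fell (limma, p adjusted by Benjamini-Hochberg over all 13723 genes tested, threshold 0.05). Over all genes tested, 6.97% rose and 7.55% fell, so the share of proteasome genes that rose was near the background. At an unadjusted p under 0.05, 7 members were higher and 1 was lower, against 14.5% and 17% of all genes tested. Limma voom on the recovered reads called 4 members higher and none lower, against 8.48% and 9.78% of all genes. The 95% interval of the log2 fold change, on the log2(FPKM + 1) scale, lay within -0.5 and 0.5 for 37 of the 46 members. The same held for 7264 of the 13723 genes tested. The other 9 members were Psma3, Psmc6 and Psmb10 and 6 that did not pass the test.

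The median log2 fold change of the 46 members was 0.12, beside -0.03 over all genes tested. Of the members 31 were above 0 and 15 below, against 6336 and 7387 of the 13723 genes tested. This median depended on how the libraries were scaled. It was 0.003 when they were set to equal summed FPKM outside the hormone genes, and 0.26 when they were set to their total reads. The median over all genes moved with it, to -0.12 and 0.09. Scaled to total reads, 8 members rose and none fell, against 10.1% and 3.06% of all genes. In 9 members every Bcas2 cKO value lay above every control value, and in 2 every one lay below, against 16.8% and 21.1% of all genes tested.

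**Figure D1:**
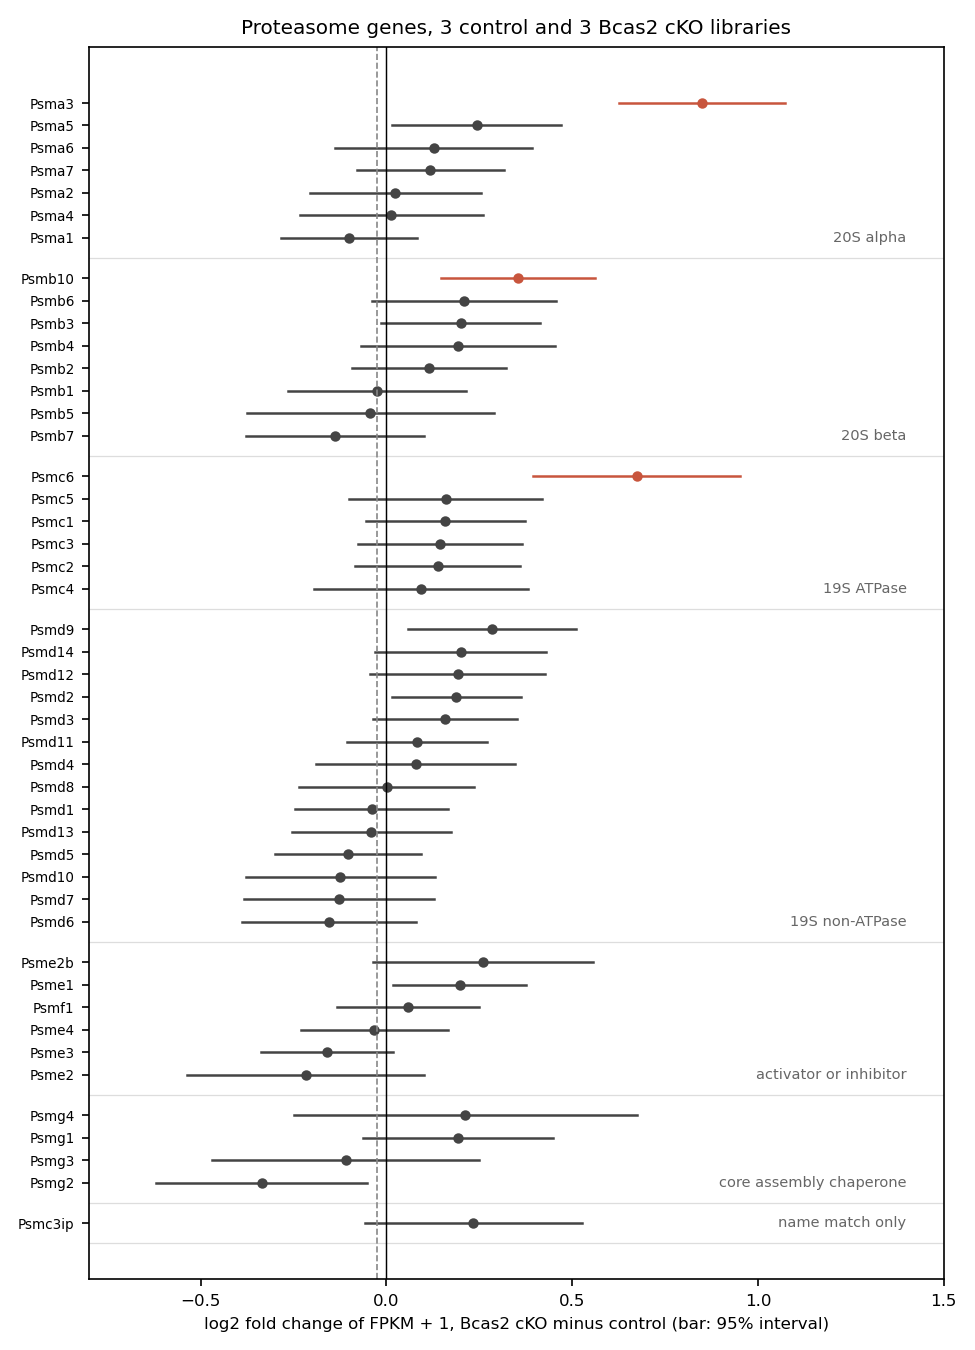
Log2 fold change of FPKM + 1 (Bcas2 cKO minus control, horizontal axis) of the 46 tested members in order of role, with 95% intervals from limma; red marks the 3 that rose, and the dashed line is the median of all genes tested. Psma3 (0.85) and Psmc6 (0.67) stand to the right of every other member.

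The alpha subunits form the outer rings of the core. Of the 8 genes, 7 were tested, and Psma3 rose while the other 6 did not pass the test. Psma3 (ENSMUSG00000060073, chromosome 12, 70974621 to 70996347, GRCm38) encodes a subunit of the alpha ring. It was 11.4, 14.3 and 12.1 FPKM in control libraries 1, 3 and 4 and 23.5, 22.8 and 24.0 FPKM in Bcas2 cKO libraries 3, 4 and 5. The groups lay well apart, with the lowest Bcas2 cKO library above the highest control library. The means were 12.6 ± 1.51 and 23.5 ± 0.632 FPKM (SD, n = 3 each), a ratio of 1.86. The log2 fold change was 0.85 (SE 0.09, 95% interval 0.62 to 1.07, limma adjusted p 0.0036). These values rested on 692 to 753 reads in the controls and 1561 to 1663 reads in Bcas2 cKO. Psma3 kept its call without each library in turn.

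The other alpha subunits ranged from Psma1 (log2 fold change -0.10, limma adjusted p 0.42) to Psma5 (0.24, limma adjusted p 0.14). Psma1 was 19.1, 21.1 and 18.9 FPKM in control against 18.9, 18.6 and 17.4 FPKM in Bcas2 cKO. It turned to 0.04 when the libraries were scaled to their total reads. Psma5 was 18.4, 22.5 and 19.99 FPKM in control against 23.0, 25.9 and 23.5 FPKM in Bcas2 cKO, with no overlap. Psma6 had the highest mean FPKM of the alpha genes, with 31.4, 41.0 and 36.1 FPKM in control against 39.8, 41.7 and 36.8 FPKM in Bcas2 cKO (0.13, limma adjusted p 0.48). Every intact core holds each alpha subunit in equal number, so the transcript ratio was also taken within each library, where the scaling between libraries cancels. This ratio and 4 others were chosen after the values were seen. Psma3 over the geometric mean of the other 6 tested alpha genes was 0.584, 0.610 and 0.598 in control and 1.06, 0.980 and 1.14 in Bcas2 cKO. The mean ratio was 1.78 times higher in Bcas2 cKO. The 2-sided exact permutation test gave p = 0.1 (0.17 adjusted over the 5 ratios computed), and 0.1 is the smallest p that 3 against 3 libraries allow. Psma8, the testis form of an alpha subunit, had at most 2 reads in any library.

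The ATPase ring unfolds the substrate. Of its 6 genes Psmc6 rose, the other 5 did not pass the test, and all 6 were above 0, beside 6336 of the 13723 genes tested. Psmc6 (ENSMUSG00000021832, chromosome 14, 45329788 to 45349705, GRCm38) was 12.4, 15.5 and 16.7 FPKM in control libraries 1, 3 and 4. It was 25.9, 23.5 and 23.2 FPKM in Bcas2 cKO libraries 3, 4 and 5, all above the controls. The means were 14.9 ± 2.24 and 24.2 ± 1.49 FPKM (SD, n = 3 each), a ratio of 1.62. The log2 fold change was 0.67 (SE 0.12, 95% interval 0.39 to 0.95, limma adjusted p 0.015). The call was lost without Bcas2 cKO library 3, with an adjusted p of 0.055 and a log2 fold change of 0.62.

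Psmc5, an ATPase with the highest mean FPKM of all members, was 39.7, 50.2 and 46.6 FPKM in control against 47.7, 54.6 and 49.99 FPKM in Bcas2 cKO (0.16, 95% interval -0.10 to 0.42, limma adjusted p 0.36). Psmc4 had the lowest change of the ring (0.09, limma adjusted p 0.65). It was 20.8, 22.4 and 18.8 FPKM in control against 20.5, 26.1 and 19.97 FPKM in Bcas2 cKO, and it turned to -0.02 without Bcas2 cKO library 4 or when rescaled without the hormone genes. Psmc6 over the geometric mean of the other 5 ATPase genes was 0.545, 0.580 and 0.723 in control and 0.979, 0.829 and 0.914 in Bcas2 cKO. This ratio was 1.47 times higher in Bcas2 cKO, with no overlap (exact permutation p = 0.1, 0.17 adjusted over the 5 ratios).

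**Figure D2:**
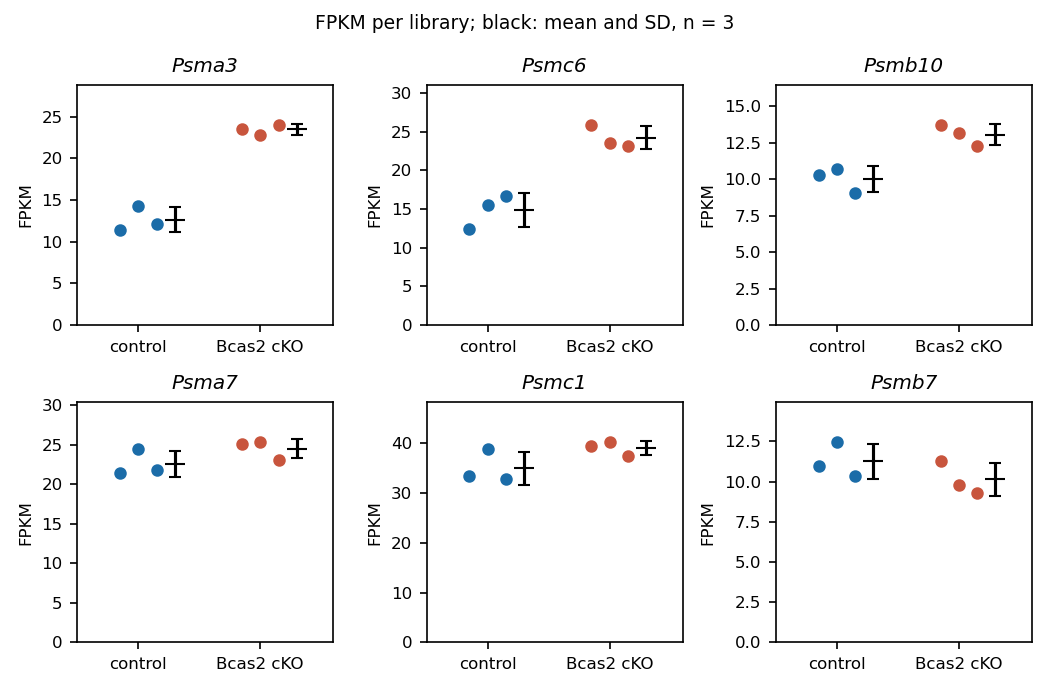
FPKM in each library (vertical axis, from 0) of the 3 members that rose, in the upper row, and of another member of the same role, in the lower row; points are libraries, and black bars are mean and SD. Psma3, Psmc6 and Psmb10 show no overlap between control and Bcas2 cKO, whereas Psma7, Psmc1 and Psmb7 overlap. Lack of overlap was not limited to the genes that rose. It held, with Bcas2 cKO higher, for 9 tested members, Psma5 among them, and for 16.8% of all genes tested.

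The beta subunits carry the proteolytic sites. Of the 9 genes 8 were tested, and Psmb10 rose while the other 7 did not pass the test. Psmb10 (ENSMUSG00000031897, chromosome 8, 105935735 to 105938444, GRCm38) encodes the immunoproteasome subunit that takes the place of the PSMB7 protein. It was 10.3, 10.7 and 9.02 FPKM in control libraries 1, 3 and 4 and 13.7, 13.2 and 12.3 FPKM in Bcas2 cKO libraries 3, 4 and 5. Every Bcas2 cKO library was above every control library. The means were 10.01 ± 0.874 and 13.1 ± 0.737 FPKM (SD, n = 3 each). The log2 fold change was 0.35 (SE 0.09, 95% interval 0.15 to 0.56, limma adjusted p 0.040). The call was lost without each library in turn (adjusted p 0.053 to 0.13), without the trend (0.054) and without the minimum level (0.080). It was also lost when rescaled without the hormone genes (0.22), where the log2 fold change was 0.25.

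Psmb7 was the lowest of the beta genes in change (-0.14, limma adjusted p 0.39), with 10.9, 12.5 and 10.3 FPKM in control against 11.3, 9.82 and 9.32 FPKM in Bcas2 cKO. The ratio of Psmb10 to Psmb7 was 0.942, 0.857 and 0.872 in control and 1.22, 1.34 and 1.32 in Bcas2 cKO. It was 1.45 times higher in Bcas2 cKO, with no overlap (exact permutation p = 0.1, 0.17 adjusted over the 5 ratios). The immunoproteasome genes outside the rule did not pass the test. Psmb8 was 5.42, 3.84 and 3.61 FPKM in control against 6.67, 5.65 and 6.32 FPKM in Bcas2 cKO (0.46, limma adjusted p 0.069). Of all alternative fits it passed only without control library 1 (limma adjusted p 0.017). In the fits without another library its adjusted p reached 0.19. Psmb9 was 3.45, 3.46 and 2.05 FPKM in control against 4.49, 3.01 and 3.77 FPKM in Bcas2 cKO (0.27, limma adjusted p 0.37). Psmb8 over Psmb5, the subunit it replaces, overlapped between groups (0.104 ± 0.028 and 0.156 ± 0.032, SD, n = 3 each, exact permutation p = 0.2, 0.25 adjusted). Psmb9 over Psmb6 overlapped as well (0.104 ± 0.030 and 0.113 ± 0.027, exact permutation p = 0.6).

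Immune cells express immunoproteasome genes strongly. Of the 8 macrophage markers listed, 5 rose and none fell, against 6.97% and 7.55% of all genes tested. Their summed level was 89.1 to 108 FPKM in control against 111 to 138 FPKM in Bcas2 cKO. The 5 lymphocyte markers summed to 7.71 to 14.8 FPKM in control against 4.32 to 7.61 FPKM in Bcas2 cKO, and the single one tested did not pass. By share of reads the lymphocyte markers overlapped between groups, with 0.00169 to 0.00235% in control against 0.00177 to 0.00210% in Bcas2 cKO. The macrophage markers took 0.0110 to 0.0125% of reads in control against 0.0157 to 0.0206% in Bcas2 cKO. No marker of either list was at 0 in all libraries. The part of these cells in the Psmb10 difference was not tested.

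The constitutive catalytic subunits, encoded by Psmb5, Psmb6 and Psmb7, showed no called change. Psmb5, which holds the chymotrypsin-like site, was 40.3, 48.8 and 36.9 FPKM in control against 38.0, 47.5 and 36.7 FPKM in Bcas2 cKO (-0.04, 95% interval -0.38 to 0.29, limma adjusted p 0.86). Psmb6 was 26.2, 31.8 and 28.6 FPKM in control against 33.8, 36.3 and 30.3 FPKM in Bcas2 cKO (0.21, limma adjusted p 0.22). Psmb4, a beta gene outside this catalytic group, had the highest FPKM of the beta genes. Its values were 38.5, 49.97 and 41.5 FPKM in control against 49.8, 51.1 and 47.1 FPKM in Bcas2 cKO (0.19, limma adjusted p 0.28). Psmb11, the thymus form, had 3 reads in 1 Bcas2 cKO library and none in the other libraries.

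**Figure D3:**
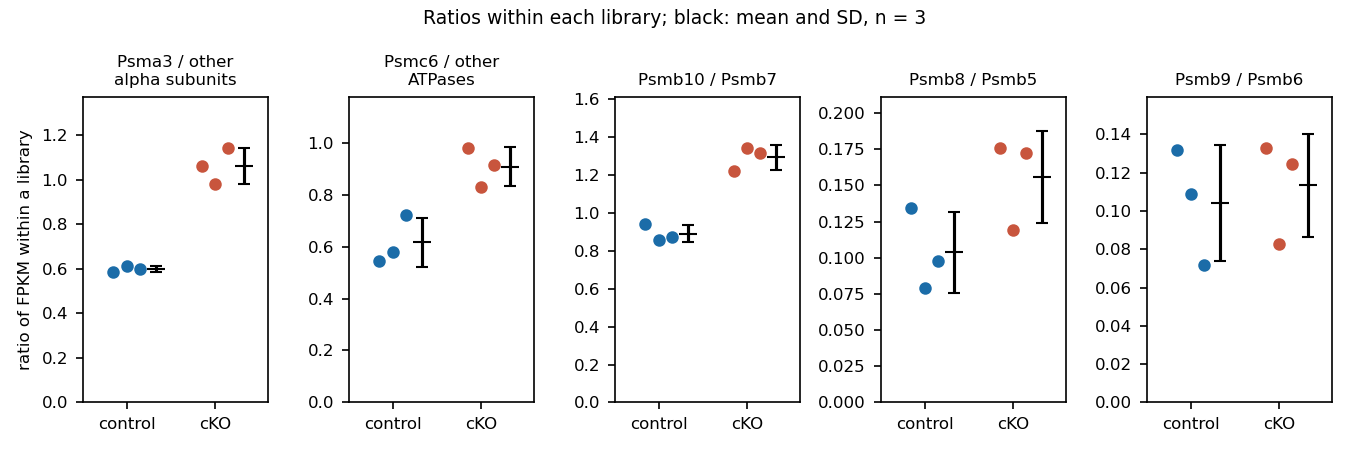
Ratios of FPKM within each library (vertical axes, from 0) for the 5 pairs described; points are libraries, and black bars are mean and SD. The ratios of Psma3, Psmc6 and Psmb10 to their partners do not overlap between control and Bcas2 cKO, and those of Psmb8 and Psmb9 do.

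Of the 14 genes named Psmd, which encode the non-ATPase subunits of the cap and 3 chaperones of its assembly, none passed the test, with a median log2 fold change of 0.04. At an unadjusted p under 0.05, 2 were higher and none was lower, against 14.5% and 17% of all genes, and voom called Psmd9 higher (0.40, adjusted p 0.046). Psmd9, a chaperone of the ATPase ring, was 1.98, 2.46 and 2.16 FPKM in control against 2.81, 2.85 and 3.02 FPKM in Bcas2 cKO (0.28, SE 0.10, limma adjusted p 0.094). Psmd2, a scaffold and ubiquitin-binding subunit with the highest FPKM of this class, was 35.9, 36.5 and 36.9 FPKM in control against 40.9, 44.1 and 40.1 FPKM in Bcas2 cKO. Its groups did not overlap, but the difference was small (0.19, 95% interval 0.01 to 0.36, limma adjusted p 0.13). Psmd6 was at the other end (-0.15, limma adjusted p 0.33), with 26.2, 29.6 and 25.2 FPKM in control against 24.5, 26.1 and 21.8 FPKM in Bcas2 cKO.

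The activators dock on the core in place of the cap. None of the 4 PA28 genes Psme1, Psme2, Psme2b and Psme3, the PA200 gene Psme4 or the inhibitor gene Psmf1 passed the test. Voom called none of these 6 either, against 8.48% of all genes higher and 9.78% lower. At an unadjusted p under 0.05 only Psme1 was counted, as higher, against 14.5% of all genes higher and 17% lower. Psme1, an interferon-responsive PA28 subunit, was 18.5, 19.9 and 17.8 FPKM in control against 20.7, 22.0 and 22.2 FPKM in Bcas2 cKO (0.20, limma adjusted p 0.13). Of the alternative fits it passed only with the libraries scaled to their total reads (0.33, adjusted p 0.030), where 10.1% of all genes rose. Rescaled without the hormone genes, Psme1 was 0.09 (adjusted p 0.60). Psme3, the nuclear PA28 gene with the highest mean FPKM of the class, was 22.4, 21.4 and 21.6 FPKM in control against 18.6, 20.8 and 18.9 FPKM in Bcas2 cKO, with no overlap (-0.16, limma adjusted p 0.19).

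Psme2, the partner of Psme1, was 19.7, 21.7 and 17.3 FPKM in control against 18.6, 17.8 and 13.8 FPKM in Bcas2 cKO (-0.22, limma adjusted p 0.31). Its near-identical copy Psme2b was 14.1, 13.7 and 15.8 FPKM in control against 15.02, 17.2 and 20.9 FPKM in Bcas2 cKO (0.26, limma adjusted p 0.21). The opposite signs of these genes are uncertain, because their transcripts shared 789 of 794 aligned bases (99.4%) and the division of reads between them is not known. Their summed reads came to 46.6 ± 3.08 RPM in control and 44.3 ± 2.25 RPM in Bcas2 cKO (SD, n = 3 each; RPM is reads scaled by the deposited depth), which overlap.

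Assembly of the core needs the chaperones encoded by Psmg1 to Psmg4. None passed the test. Voom called none, against 8.48% of all genes higher and 9.78% lower. At an unadjusted p under 0.05 only Psmg2 was counted, as lower, against 14.5% of all genes higher and 17% lower. Psmg2 was 15.1, 16.2 and 15.9 FPKM in control against 12.5, 14.4 and 10.2 FPKM in Bcas2 cKO, all below the controls (-0.34, SE 0.12, limma adjusted p 0.11). Psmg4 was 11.7, 19.2 and 11.04 FPKM in control against 17.0, 14.8 and 15.9 FPKM in Bcas2 cKO (0.21, limma adjusted p 0.50). Control library 3 was the high value there, and without it the difference was 0.45 and passed (adjusted p 0.035). Psmc3ip matches the name rule but encodes a meiotic recombination factor and no proteasome subunit. It was 1.04, 1.18 and 1.09 FPKM in control against 1.36, 1.38 and 1.69 FPKM in Bcas2 cKO, on 29 to 53 reads (0.23, limma adjusted p 0.24).

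The summed level of the 31 genes for constitutive core and cap subunits was 640, 755 and 653 FPKM in control libraries 1, 3 and 4 and 739, 787 and 711 FPKM in Bcas2 cKO libraries 3, 4 and 5. Control library 3 lay above Bcas2 cKO libraries 3 and 5, so the groups overlapped. The means were 683 ± 63.1 and 746 ± 38.8 FPKM (SD, n = 3 each), a ratio of 1.09. Of the 46 tested members, 38 were highest of the controls in library 3, and 30 were highest of the Bcas2 cKO libraries in library 4 while 29 were lowest in library 5. Psma3 and Psmc6, set aside after their values were seen, were the only genes of these 31 with an interval reaching beyond 0.5.

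**Figure D4:**
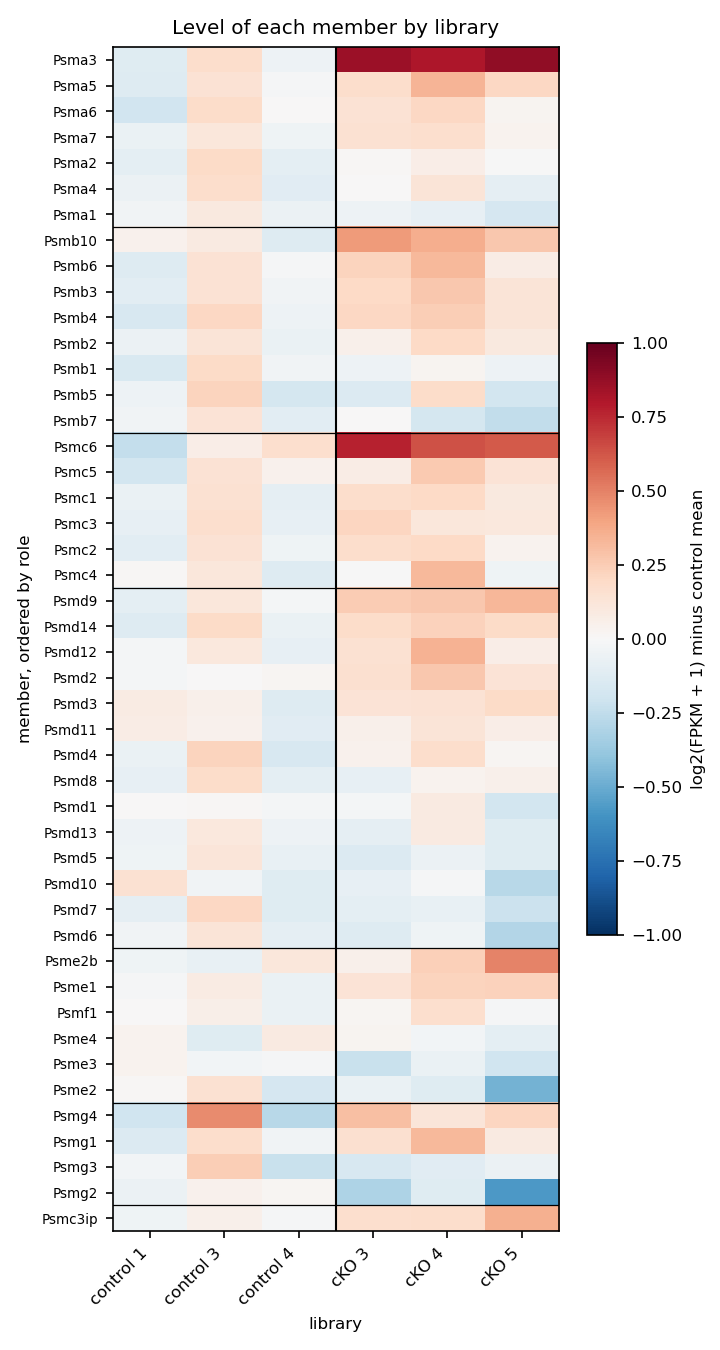
Level of each tested member (rows, by role) in each of the 6 libraries (columns), as log2(FPKM + 1) minus its mean over the 3 control libraries; red is higher and blue lower. Control library 3 and Bcas2 cKO library 4 are the redder columns of their groups, and the rows of Psma3 and Psmc6 are red in all 3 Bcas2 cKO libraries.

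The mean FPKM of these 31 genes ran from 7.91 for Psmd11 to 48.1 for Psmc5, a 6.09-fold range between genes whose products occur in fixed proportions. FPKM divides by the joined exons of every annotated transcript, which were 1 to 3.36 times as long as the main coding transcript. Per kilobase of the main coding transcript the range was 4.45-fold, from 17.7 for Psmd11 to 78.9 for Psma7. Gene totals also sum over splice forms. GENCODE M21 lists 9 transcripts of Psma3, of which 3 are protein-coding, 3 retain an intron and 3 are targets of nonsense-mediated decay. It lists 10 of Psmc6, of which 1 is protein-coding, 4 retain an intron and 2 are decay targets. Which forms carried the extra reads was not analysed here.

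Of the 48 members, 22 overlap another annotated gene. Psma3 overlaps the antisense transcript 3110056K07Rik, which was 2.46, 2.14 and 2.53 FPKM in control against 2.22, 2.18 and 2.32 FPKM in Bcas2 cKO, with overlap between groups. Psmb10 overlaps the antisense gene Gm16156, which was at most 0.239 FPKM. No gene of the table overlaps Psmc6.

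Promoter windows of RefSeq (GRCm38.p6) were found for 40 members, in 43 windows. The windows of the 3 members that rose are shown beside those of Psmc5 and Psmb4, the most abundant ATPase and beta genes, which did not pass the test. Each runs 5′ to 3′ on the strand of the gene and ends before the first annotated transcribed base. Capitals mark short motifs on either strand. They are CCAAT, known as a core bound by NF-Y, GGGCGG, bound by Sp1, TGACG, bound by CREB and ATF factors, TGACNNNGC, bound by Nrf1 and Nrf2, and GAAA repeated after 2 other bases, bound by interferon regulatory factors. TGACG and TGACNNNGC can overlap.
Psma3: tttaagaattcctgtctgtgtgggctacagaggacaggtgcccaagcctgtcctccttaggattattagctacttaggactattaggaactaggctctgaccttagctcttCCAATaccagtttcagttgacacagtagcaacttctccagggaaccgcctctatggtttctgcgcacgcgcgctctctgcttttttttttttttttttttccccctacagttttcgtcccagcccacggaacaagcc
Psmc6: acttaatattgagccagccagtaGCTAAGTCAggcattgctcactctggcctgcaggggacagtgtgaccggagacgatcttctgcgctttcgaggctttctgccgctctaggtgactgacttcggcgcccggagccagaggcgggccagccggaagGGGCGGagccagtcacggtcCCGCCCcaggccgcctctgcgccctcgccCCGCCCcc
Psmb10: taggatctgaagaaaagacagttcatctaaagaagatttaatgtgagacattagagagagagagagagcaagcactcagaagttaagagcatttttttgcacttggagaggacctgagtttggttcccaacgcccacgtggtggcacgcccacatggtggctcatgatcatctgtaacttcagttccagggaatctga
Psmc5: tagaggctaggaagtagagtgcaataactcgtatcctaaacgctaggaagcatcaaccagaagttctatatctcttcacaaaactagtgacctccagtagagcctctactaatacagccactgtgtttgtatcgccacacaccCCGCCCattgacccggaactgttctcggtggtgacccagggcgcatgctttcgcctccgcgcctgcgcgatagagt
Psmb4: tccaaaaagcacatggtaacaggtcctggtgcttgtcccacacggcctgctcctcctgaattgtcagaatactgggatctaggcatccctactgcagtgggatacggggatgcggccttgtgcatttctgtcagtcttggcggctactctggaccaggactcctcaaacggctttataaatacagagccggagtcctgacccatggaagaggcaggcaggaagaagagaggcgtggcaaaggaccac
They lie at chr12:70974373-70974620 (plus strand), chr14:45329574-45329787 (plus), chr8:105938445-105938642 (minus), chr11:106255935-106256153 (plus) and chr3:94886962-94887208 (minus). The 3 windows of genes that rose share no searched motif. The Psma3 window holds 1 CCAAT, the Psmc6 window holds 3 GGGCGG and 1 TGACNNNGC, and no motif was found in the Psmb10 window. Over the full 250 bases before the start, CCAAT was in 14 of the 43 member windows and 33.8% of all windows, GGGCGG in 22 and 32.7%, and TGACG in 16 and 17.8%. TGACNNNGC was in 5 and 10.2%, and the GAAA repeat in 3 and 2.98%.

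The pathway that feeds the proteasome was read from 57 further genes of ubiquitin, its transfer, extraction from membranes and the control of proteasome genes. Of these 3 rose (Syvn1, Mafk and Maff) and 4 fell (Ddi2, Fbxo7, Os9 and Ubqln2), with a median log2 fold change of -0.04. The background was 6.97% and 7.55%, so both shares were near it. Rps27a, which encodes ubiquitin fused to a ribosomal protein, did not pass the test, although its groups did not overlap (0.86, limma adjusted p 0.076).

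Syvn1, the ligase of endoplasmic reticulum degradation also called Hrd1, rose from 23.6 ± 1.32 to 46.4 ± 2.32 FPKM (SD, n = 3 each). The change was 0.95 on the log2 scale (SE 0.08, limma adjusted p 0.0018), and Syvn1 passed in each of the 6 fits without a library. Os9, a lectin that hands misfolded glycoproteins to the Syvn1 ligase, fell from 106 ± 8.68 to 81.4 ± 5.13 FPKM (-0.37, limma adjusted p 0.049). Derl1, Derl2, Sel1l, Herpud1 and the other genes of that list did not pass the test.

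Nfe2l1 encodes Nrf1, the factor that raises proteasome genes when the proteasome is inhibited. It was 60.8, 55.9 and 52.9 FPKM in control against 47.8, 48.3 and 43.7 FPKM in Bcas2 cKO, all below the controls (-0.27, SE 0.09, limma adjusted p 0.083). Ddi2, the protease that activates Nrf1, fell from 9.18 ± 0.672 to 6.43 ± 0.717 FPKM (SD, n = 3 each; -0.46, limma adjusted p 0.026). The small Maf genes, whose products pair with Nrf1 and Nrf2, were higher. Mafk rose from 10.03 ± 1.33 to 16.9 ± 2.08 FPKM (0.70, limma adjusted p 0.014) and Maff from 15.2 ± 6.82 to 51.8 ± 18.5 FPKM (1.76, limma adjusted p 0.032). Mafg did not pass (0.27, limma adjusted p 0.13).

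Of 19 proteasome partners without a Psm name, including the subunit genes Adrm1 and Sem1 and the maturation factor gene Pomp, 3 fell and none rose. Over all genes tested, 7.55% fell and 6.97% rose. At an unadjusted p under 0.05, 2 of the 19 were higher and 6 lower, against 14.5% and 17% of all genes tested. Beside Ddi2, Fbxo7, which binds the inhibitor encoded by Psmf1, fell from 5.35 ± 0.159 to 3.90 ± 0.458 FPKM (-0.38, limma adjusted p 0.037). Ubqln2, a shuttle of ubiquitinated proteins, fell from 57.5 ± 3.67 to 44.8 ± 3.42 FPKM (-0.36, limma adjusted p 0.046). Ddi2, Fbxo7, Os9 and Ubqln2 lost their calls in 4 to 6 of the 6 fits without a library and when scaled to total reads, where their changes were -0.21 to -0.33. Maff lost its call in 4 of the 6 and Mafk without control library 4 (adjusted p 0.054).

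**Figure D5:**
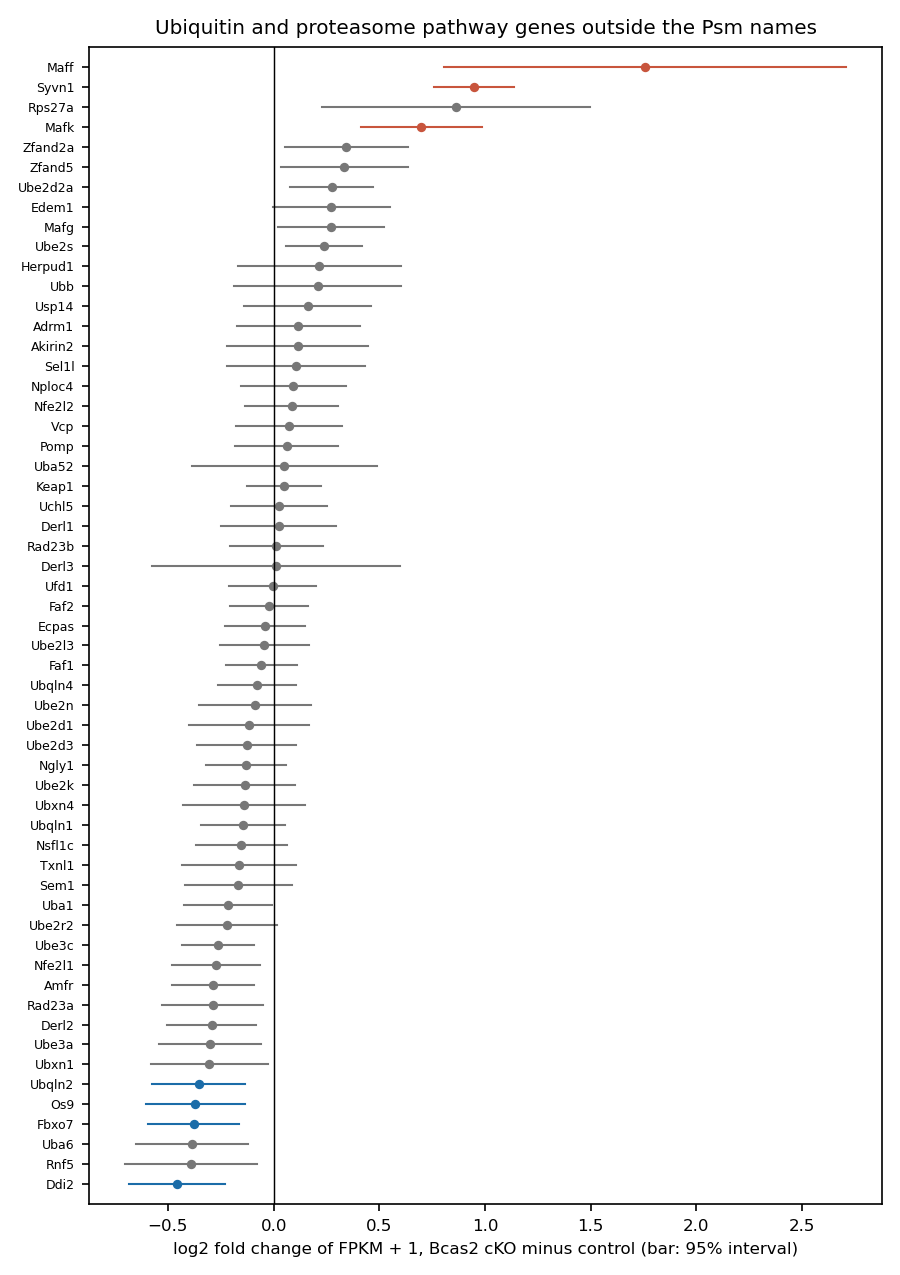
Log2 fold change of FPKM + 1 (Bcas2 cKO minus control, horizontal axis) of the 57 pathway genes outside the Psm names, with 95% intervals from limma; red marks the 3 that rose and blue the 4 that fell. Maff and Syvn1 are farthest to the right, and Maff has the widest interval, 0.81 to 2.71.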

How the data were processed

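Per the labels' protocols, Trizol was used for RNA and the SMARTer kit for the mRNA-seq libraries. The build was GRCm38 (mm10), per the submitters' processing notes. The authors deposited FPKM per gene, per the file headers; no source used here names the aligner, the counter or the strand setting. Column names gave each library its group. The labels name Bcas2 cKO samples 1, 3 and 4, but the table has a column numbered 5, which was used as a member of its group. Multiplied by gene length, 100% of FPKM values fell on whole steps within 0.01 of a read, which gave reads per gene. Median-of-ratios factors of the deposited FPKM were all 1.00, so the values already carried that scaling. The table's gene length equalled the joined GENCODE M21 exons for 46 of 48 members.

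The test was limma 3.58.1 (lmFit, eBayes with trend, R 4.3.3) on log2(FPKM + 1) of genes averaging 1 FPKM or more, with Benjamini-Hochberg adjustment over all genes; fold changes on this scale understate changes of low genes. The fit was tested on simulated data. No 2 libraries of a group agreed within sampling noise (chi-square per degree of freedom at least 13.6). Ratios used scipy 1.17.1. Members and lists were chosen with earlier results of these data known. Genes named were those that passed, the extremes and the most abundant member of each role, the immunoproteasome and PA28 genes, genes under the minimum, Nfe2l1 and Bcas2, with some others added after their values were seen. Alternatives were a pseudocount of 0.1, no minimum or a minimum of 5 FPKM, 3 other scalings (1 added after seeing the data), voom, no trend, a replicate block, and leaving out each library. A gene of the pathway list is not reported here.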

Additional observations from a re-analysis of the deposited data

How the results depend on the processing

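The count of 3 members that rose was 2 to 4 with a pseudocount of 0.1, either other minimum, no trend, voom or rescaling without the hormone genes, and 1 to 3 in the leave-one-out fits, where Bcas2 cKO library 3 gave the 1. None fell under any alternative run. Scaled to total reads, 8 members rose, where 10.1% of all genes did, with a median of 0.26; without a library the median was 0.08 to 0.18. Numbers 3 and 4 occur in both groups. With a replicate block on them no member rose (Psma3 adjusted p 0.0505, Psmc6 0.089, Psmb10 0.15). In that fit 1 pathway gene rose and 0 fell, and calls over all genes dropped from 1993 to 538. Control library 1 and Bcas2 cKO library 5 share no number, so they add nothing to the group difference there. The fit thus rests on fewer libraries, and the lost calls cannot be read as an effect of pairing. Deviations of same-numbered libraries correlated at -0.15 and 0.05, so the numbers were not taken as pairs.

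Pathway counts of 3 and 4 among 57 became 9 and 0 scaled to total reads, where 10.1% of all genes rose and 3.06% fell. Falls numbered 9 with voom, where 9.78% of all genes fell. They numbered 2 without trend, where 920 of 13723 genes fell, and 0 without a minimum, where 516 of 32845 did. Leaving out a library gave 1 to 4 rises, with 1 without control library 4, and 0 to 3 falls. Over all genes 48.0% of calls were rises, against 32.7% rescaled without the hormone genes and 76.8% scaled to total reads. Without a minimum 1144 genes were called, and 888, 878, 921, 928 and 1318 without control library 4, Bcas2 cKO libraries 3, 4 and 5 and control library 3. Bcas2 passed with voom (-0.45, adjusted p 0.047), rescaled without the hormone genes (-0.52, 0.035) and without control library 1 (-0.52, 0.049), and was -0.52 to -0.27 without a library. Psmc4 turned to -0.020 rescaled without the hormone genes and was -0.025 (without Bcas2 cKO library 4) to 0.16 in the leave-one-out fits, and Psma1 turned to 0.037 scaled to total reads. The cause of these changes was not tested. Psma8 and Psmb11 were too shallow to compare.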
